A study of Homo sapiens with 6 samples.

Results

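The 9 genes described here encode enzymes that turn squalene into cholesterol. They were chosen by name, in pathway order, as SQLE, LSS, CYP51A1, TM7SF2, MSMO1, NSDHL, HSD17B7, EBP and DHCR7. All 9 were found among the 54259 gene symbols of the deposited count table, and all 9 were among the 15277 genes with enough counts to be tested. RNA-Sequence data were available for 6 libraries of MDA-MB-231 cells, 3 labelled shBry and 3 labelled shNC. MDA-MB-231 is a widely used cell line of human breast cancer, shBry is a short hairpin RNA against brachyury and shNC is the control hairpin. The labels give no further treatment, time point, hairpin sequence or clone, and they do not say whether the libraries of a group came from separate cultures. The p-values therefore judge a group difference against the spread between these libraries, which may be technical. The comparison asks which genes differ between cells with the hairpin against brachyury and cells with the control hairpin.

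Brachyury itself, listed under its older symbol T, had 0 counts in each of the 6 libraries, the shNC controls included, so its knockdown could not be checked here. An effect of brachyury and any other difference between the shBry and shNC cells cannot be told apart. The libraries held between 19319411 and 22985371 counts, and a count of 0 allows up to 3 counts, or between 0.126 and 0.162 CPM (counts relative to the library total, scaled by TMM normalization), for counting error only. The deposited design text calls the RNA pericardial. The MDA-MB-231 markers VIM, CD44, KRT18 and AXL summed to between 5168 and 5930 CPM, while ESR1, PGR and CDH1, which these cells are known to lack, averaged at most 0.0325 CPM in either group. None of the first 4 was called by the rule given below, and the epithelial marker EPCAM was called higher, with 1.55 ± 0.513 CPM in shNC and 4.28 ± 0.681 in shBry (SD, n = 3). Of 6 mesothelial markers, ITLN1 was at 0 counts and UPK3B and WT1 averaged at most 0.222 CPM, while MSLN had 32.1 ± 3.85 CPM in shNC and 45.9 ± 2.89 in shBry (SD, n = 3), and the 6 together summed to between 40.2 and 42.1 CPM in shNC and between 51.4 and 57.7 in shBry. LRRN4 was called higher and CALB2 lower, and neither was called without shNC replicate 3. The 4 leukocyte markers summed to at most 0.229 CPM in any library. The part of these markers in the results was not tested.

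Cholesterol synthesis proceeds in the membrane of the endoplasmic reticulum. SQLE oxidizes squalene, LSS folds the product into lanosterol, and the following enzymes strip methyl groups from the sterol ring and move or remove its double bonds until cholesterol is formed. The genes of the pathway are classical targets of the transcription factor SREBP-2, which is released when sterols in that membrane are low, and NF-Y and Sp1 are known to act beside it. Proliferating tumor cells need cholesterol for new membrane.

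RefSeq promoter windows (GRCh38.p14, 250 bases before to 50 after a gene's start) were found for 8 of the 9 genes, with 2 windows for DHCR7, and not for SQLE. The RefSeq starts can differ from the GENCODE locations given below. For CYP51A1, EBP and DHCR7 the windows lie wholly inside that location. The letters CCAAT, bound by NF-Y, occurred on either strand in 7 of the 9 windows, which belonged to 7 of these 8 genes. The share was 34.3% of the 15282 windows of all tested genes. GGGCGG, bound by Sp1 and related factors, occurred in 7 of the 9 windows, again of 7 of the 8 genes, against 65.2% of the windows of all tested genes. The sterol regulatory letters TCACNCCAC and the T-box letters TCACACCT occurred in none of the 9 windows, against 1.13% and 0.746%. This says only that these letters are not in these windows. Of the 6 genes of the mevalonate pathway, which leads up to squalene, that had a window, 5 held CCAAT and 6 held GGGCGG. The sterol regulatory letters and the T-box letters occurred in 0 of these 6. A match is a description of letters and not a binding site. The following 6 windows show the range, from NSDHL with 5 matches to CCAAT, MSMO1 with 4 and EBP with 3, the largest number of matches among the 8, through DHCR7 and TM7SF2, which had the largest and the smallest fall, to CYP51A1 with 0. Each is printed on the strand of its gene, with CCAAT or its reverse ATTGG in capitals. They lie at chrX:152830813-152831112 (plus strand) for NSDHL, chr4:165327419-165327718 (plus) for MSMO1, chrX:48521558-48521857 (plus) for EBP, chr11:71448344-71448643 (minus) for DHCR7, chr11:65111622-65111921 (plus) for TM7SF2 and chr7:92134428-92134727 (minus) for CYP51A1.
NSDHL: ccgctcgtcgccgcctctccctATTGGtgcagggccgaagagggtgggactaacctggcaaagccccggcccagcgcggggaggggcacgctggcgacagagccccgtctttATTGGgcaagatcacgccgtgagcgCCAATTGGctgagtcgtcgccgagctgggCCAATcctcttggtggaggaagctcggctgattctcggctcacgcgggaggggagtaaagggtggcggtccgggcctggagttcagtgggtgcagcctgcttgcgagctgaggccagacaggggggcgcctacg
MSMO1: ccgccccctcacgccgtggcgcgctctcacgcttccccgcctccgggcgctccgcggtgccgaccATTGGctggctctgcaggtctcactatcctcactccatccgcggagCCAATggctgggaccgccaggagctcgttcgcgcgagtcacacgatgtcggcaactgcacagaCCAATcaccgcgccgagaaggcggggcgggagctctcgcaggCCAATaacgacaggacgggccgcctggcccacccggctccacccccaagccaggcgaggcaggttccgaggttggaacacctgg
EBP: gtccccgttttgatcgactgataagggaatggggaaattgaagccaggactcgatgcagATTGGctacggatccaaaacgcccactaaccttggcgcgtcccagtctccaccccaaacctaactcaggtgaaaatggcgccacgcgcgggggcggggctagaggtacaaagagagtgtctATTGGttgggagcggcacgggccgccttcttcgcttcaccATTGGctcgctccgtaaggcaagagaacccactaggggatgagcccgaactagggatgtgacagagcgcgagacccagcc
DHCR7: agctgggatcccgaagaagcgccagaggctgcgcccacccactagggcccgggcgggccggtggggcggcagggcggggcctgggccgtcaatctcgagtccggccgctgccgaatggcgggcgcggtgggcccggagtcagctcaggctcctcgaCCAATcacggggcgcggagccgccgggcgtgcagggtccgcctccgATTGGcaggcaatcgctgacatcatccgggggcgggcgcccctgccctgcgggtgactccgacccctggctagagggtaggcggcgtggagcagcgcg
TM7SF2: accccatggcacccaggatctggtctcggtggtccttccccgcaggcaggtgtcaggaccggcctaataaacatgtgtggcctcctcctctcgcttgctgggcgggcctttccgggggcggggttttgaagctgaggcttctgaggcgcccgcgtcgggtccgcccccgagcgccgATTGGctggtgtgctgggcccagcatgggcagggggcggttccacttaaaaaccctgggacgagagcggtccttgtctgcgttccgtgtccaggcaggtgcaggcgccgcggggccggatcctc
CYP51A1: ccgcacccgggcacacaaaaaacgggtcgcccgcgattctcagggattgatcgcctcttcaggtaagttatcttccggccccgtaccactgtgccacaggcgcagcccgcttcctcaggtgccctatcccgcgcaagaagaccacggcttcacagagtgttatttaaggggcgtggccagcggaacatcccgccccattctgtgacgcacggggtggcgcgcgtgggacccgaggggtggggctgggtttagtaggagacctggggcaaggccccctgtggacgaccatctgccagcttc
NSDHL holds 2 matches that overlap, on opposite strands, and the other DHCR7 window held none of the 4 motifs. CYP51A1, with 0 matches to CCAAT, had a log2 fold change of -0.98 (given below). With 1 match each, LSS had -1.29 and TM7SF2 had -0.76. With 2 matches each, HSD17B7 had -1.35 and DHCR7 had -1.72. EBP, with 3, had -1.64, MSMO1, with 4, had -1.29, and NSDHL, with 5, had -1.18. A link between matches and fold changes was not tested.

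All 9 enzyme genes were lower in shBry than in shNC, and in each of them the 3 shBry values lay below the 3 shNC values. A gene was called at an adjusted p below 0.05 (quasi-likelihood test of edgeR, Benjamini-Hochberg adjustment over all 15277 genes) and a fold change above 1.5, and by this rule 9 of 9 were called lower, against 15.2% of all genes tested (17.1% were called higher and 32.4% in either direction). Of all genes tested, 28.9% had 3 shBry values below the 3 shNC values and 30.6% had them above. Without a fold change limit, all 9 were again called lower, against 25.3% of all genes tested. The members, and the gene lists below, were chosen with earlier results of these data known. The shares beside them are therefore a description and no independent support. The log2 fold changes of shBry relative to shNC lay between -1.72 for DHCR7 and -0.76 for TM7SF2, with a median of -1.29, beside a median of 0.03 over all genes tested. Among the log2 fold changes of all genes tested, ranked from the lowest, the 9 genes stood between percentile 1.51 (DHCR7) and percentile 11.9 (TM7SF2). With a fold change limit of 2, 7 were called lower, against 6.82% of all genes, and the 2 others were CYP51A1 and TM7SF2. In bulk RNA, fewer cells that express a gene and less of its RNA per cell cannot be told apart.

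**Figure D1:**
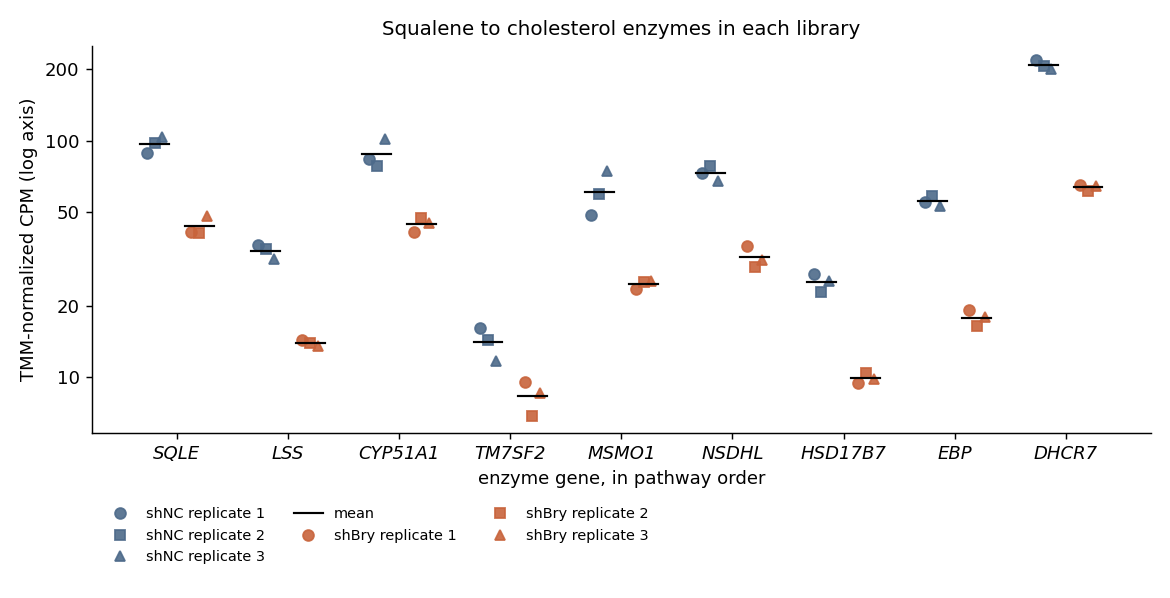
TMM-normalized CPM of the 9 enzyme genes in each library, on a log axis, with 1 point per library (circle, square and triangle for replicates 1, 2 and 3) and a black line at the mean of each group. In every gene the 3 shBry points lie below the 3 shNC points, and the distance is smallest for TM7SF2.

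The pathway opens with SQLE, which adds the oxygen to squalene and is regarded as a rate-limiting enzyme, and LSS, which closes the rings. SQLE is annotated on chromosome 8 of GRCh38 from 124998497 to 125022283 (GENCODE 29). It had 88.9, 97.3 and 103 CPM in the 3 shNC libraries and 41.1, 40.9 and 48.1 in the 3 shBry libraries. SQLE was thus 2.22-fold lower in shBry, or -1.15 ± 0.10 on the log2 scale (SE; edgeR adjusted p = 2.6e-07). LSS, on chromosome 21 from 46188141 to 46228824, had 36.2, 34.8 and 31.5 CPM in shNC and 14.4, 13.99 and 13.6 in shBry, and the shBry libraries were nearly equal. It was 2.44-fold lower, or -1.29 ± 0.11 on the log2 scale (SE; edgeR adjusted p = 3.7e-07). Other annotated genes overlap 7.88% of the exon bases of LSS on the opposite strand, and none overlap those of SQLE.

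CYP51A1, a cytochrome P450, removes the first methyl group from lanosterol, and TM7SF2 reduces the double bond that this step leaves. CYP51A1, on chromosome 7 from 92112151 to 92134803, had 83.8, 78.1 and 102 CPM in shNC and 41.3, 47.1 and 44.9 in shBry. It fell 1.98-fold, or -0.98 ± 0.11 on the log2 scale (SE; edgeR adjusted p = 3.2e-06). Annotated genes on both strands overlap 83.2% of its exon bases. Those on its own strand, AC000120.2 and AC000120.3, were not analysed here, so reads lost to them are not known. The antisense gene CYP51A1-AS1 had 6 counts over all 6 libraries and the pseudogenes CYP51A1P1, CYP51A1P2 and CYP51A1P3 had 8, 24 and 0, against 767 to 2032 counts per library for CYP51A1. TM7SF2, on chromosome 11 from 65111845 to 65116384, was the member with the fewest reads in every shNC library. It had 16.1, 14.4 and 11.8 CPM in shNC and 9.53, 6.87 and 8.60 in shBry, so that the lowest shNC library and the highest shBry library were closer than in any other member. It was 1.69-fold lower, or -0.76 ± 0.16 on the log2 scale (SE; edgeR adjusted p = 0.0013), and the 95% interval from -1.08 to -0.44 reached past the fold change limit, which lies 0.585 below 0 on the log2 scale.

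MSMO1, NSDHL and HSD17B7 work as a complex that takes the remaining pair of methyl groups from the ring: MSMO1 oxidizes the methyl group, NSDHL removes the resulting carboxyl group and HSD17B7 reduces the ketone that is left. MSMO1, on chromosome 4 from 165327623 to 165343160, had 48.5, 59.5 and 74.4 CPM in shNC, the widest relative spread of the members in this group (coefficient of variation 21.4%), and 23.5, 25.2 and 25.6 in shBry. It fell 2.45-fold, or -1.29 ± 0.14 on the log2 scale (SE; edgeR adjusted p = 2.3e-06). NSDHL, on chromosome X from 152830967 to 152869729, had 72.9, 78.1 and 67.6 CPM in shNC and 35.96, 29.3 and 31.4 in shBry. It fell 2.26-fold, or -1.18 ± 0.10 on the log2 scale (SE; edgeR adjusted p = 3.5e-07). HSD17B7, on chromosome 1 from 162790702 to 162812817, had 27.4, 23.02 and 25.4 CPM in shNC and 9.42, 10.5 and 9.80 in shBry. It fell 2.56-fold, or -1.35 ± 0.12 on the log2 scale (SE; edgeR adjusted p = 6.8e-07). The 3 genes of the complex therefore had log2 fold changes within 0.18 of each other, less than the width of any of their 95% intervals. LSS, at -1.29, lay within their range and SQLE, at -1.15, lay just outside it. Such closeness was thus not particular to the complex.
HSD17B7 shares 14.2% of its transcript stretches of 50 bases with other annotated genes, among them its pseudogene HSD17B7P2. HSD17B7P2 had 121, 105 and 149 counts in shNC and 48, 75 and 57 in shBry, or -1.11 ± 0.21 on the log2 scale (SE; edgeR adjusted p = 0.00048), so the counting could have split reads between the 2 rows. With the counts of both rows added together, an alternative chosen after seeing the data, HSD17B7 had a log2 fold change of -1.30 (edgeR adjusted p = 7.1e-07).

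EBP, which moves the remaining ring double bond, and DHCR7, which reduces that double bond in the last ring reaction and is mutated in Smith-Lemli-Opitz syndrome, had the largest falls. EBP, on chromosome X from 48521158 to 48528716, had 55.0, 58.6 and 52.7 CPM in shNC and 19.2, 16.4 and 18.0 in shBry. It fell 3.11-fold, or -1.64 ± 0.10 on the log2 scale (SE; edgeR adjusted p = 1.5e-08). DHCR7, on chromosome 11 from 71428193 to 71452868, had 218, 207 and 201 CPM in shNC and 64.9, 61.3 and 64.5 in shBry. It fell 3.28-fold, or -1.72 ± 0.08 on the log2 scale (SE; edgeR adjusted p = 6.6e-10), the smallest adjusted p of the 9 genes. No annotated gene overlaps the exons of EBP or DHCR7, and neither shares a stretch of 50 bases with another gene.

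**Figure D2:**
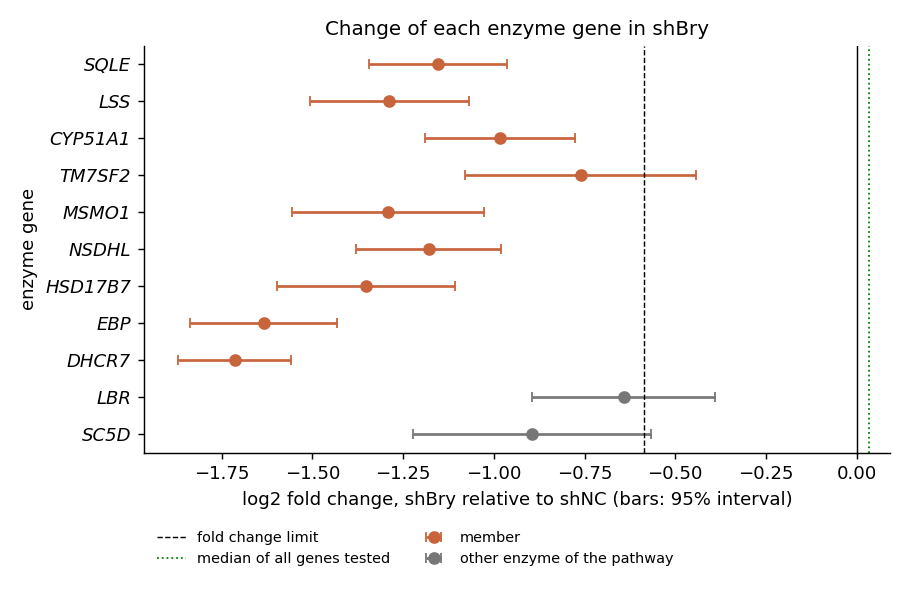
Log2 fold change of each enzyme gene in shBry relative to shNC, with 95% intervals from the standard errors, for the 9 members (orange) and 2 other enzymes of the same part of the pathway, LBR and SC5D (grey). The dashed line is the fold change limit and the dotted line the median of all genes tested, 0.03. DHCR7 and EBP lie farthest to the left, at -1.72 and -1.64, and only the intervals of TM7SF2, LBR and SC5D cross the limit.

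The 9 falls were also compared with each other. To do so without any scaling of libraries, the log2 CPM of each was set against the mean of the other 8 within each library. DHCR7 stood 2.22, 2.14 and 2.08 above the others in shNC and 1.64, 1.63 and 1.63 above them in shBry, a difference of -0.51. EBP lay at -0.02, 0.09 and -0.09 in shNC and at -0.34, -0.51 and -0.44 in shBry, a difference of -0.42. In both genes the 3 shBry values lay below the 3 shNC values. TM7SF2 had the opposite sign, from -2.01, -2.19 and -2.53 in shNC to -1.48, -1.92 and -1.64 in shBry, a difference of 0.56, again without overlap. For the 6 other members the groups overlapped, with differences between -0.11 (HSD17B7) and 0.32 (CYP51A1). Because each gene is set against the others, the 9 differences balance by construction and are not independent of each other. The opposite sign of TM7SF2 thus means a smaller fall than the mean of the others, and not a rise. The exact permutation test of 3 against 3 libraries (two-sided) cannot go below p = 0.1, which DHCR7, EBP and TM7SF2 reached (0.3 with Benjamini-Hochberg adjustment over 9 comparisons). It could therefore not pass a threshold of 0.05 and does not decide whether the falls of the members differ.

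Members that follow each other in pathway order were compared by the ratio of their levels within each library. SC5D, which is not a member, acts before DHCR7, so EBP and DHCR7 are neighbours among the members only. In all 8 neighbouring pairs the shBry and shNC ratios overlapped. With all libraries, the largest shift was that of MSMO1 over TM7SF2, whose log2 ratio per kilobase was 2.34 ± 0.54 in shNC and 1.82 ± 0.29 in shBry (SD, n = 3, exact two-sided permutation p = 0.2, adjusted p = 0.533 over 8 pairs). This shift of -0.52 was -0.24 without shNC replicate 3, where that of CYP51A1 over LSS was larger, at 0.48 against 0.31 with all libraries. The ratio of DHCR7 over EBP went from 1.12 ± 0.085 to 1.04 ± 0.069 (exact two-sided permutation p = 0.3, adjusted p = 0.6).

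**Figure D3:**
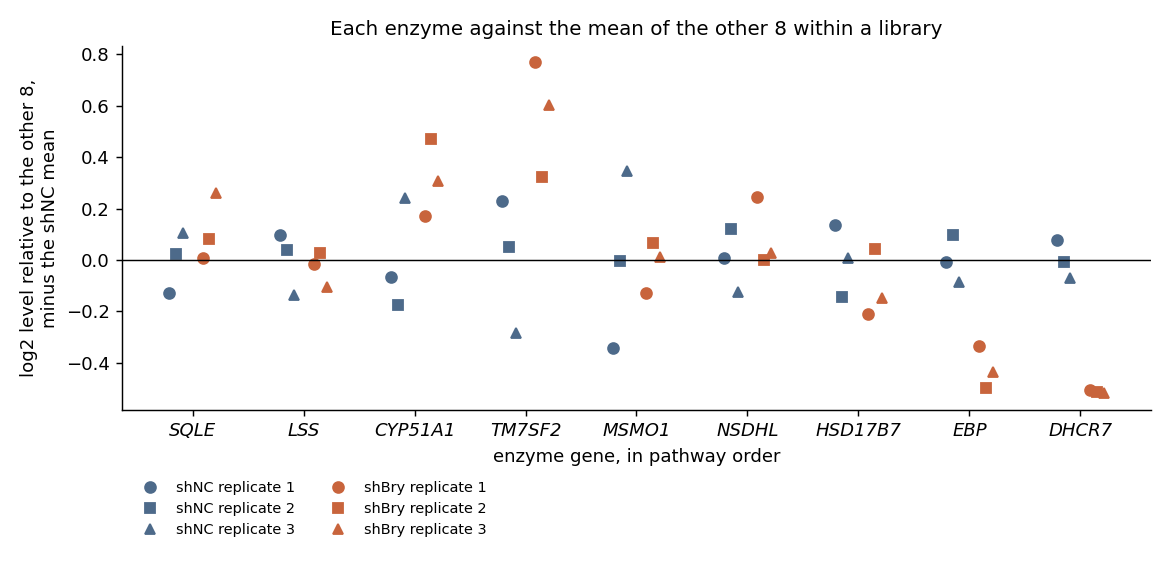
Log2 CPM of each enzyme gene minus the mean of the other 8 in the same library, shown after subtraction of its shNC mean, with 1 point per library (blue shNC, orange shBry, markers by replicate). TM7SF2 lies above its shNC values in all 3 shBry libraries, EBP and DHCR7 lie below theirs, and the 6 other genes overlap.

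Within the shNC group the members did not vary together. Against its mean in shNC, the log2 CPM of MSMO1 was 0.31 higher and that of CYP51A1 0.22 higher in shNC replicate 3, while TM7SF2 was at -0.25 and LSS at -0.11 in the same library. In the shBry group, TM7SF2 was lowest and CYP51A1 highest in replicate 2. The sum over the 9 genes was steadier than its parts, with 647, 651 and 669 CPM in shNC and 259, 252 and 265 in shBry. The sum was 2.54-fold lower in shBry, or 2.29-fold lower without DHCR7, the member with the most reads.

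Levels of different genes were compared as CPM per kilobase of annotated exon. In shNC, DHCR7 was highest, with 50.2 ± 2.15 CPM per kilobase (SD, n = 3), followed by NSDHL with 36.5 ± 2.63. CYP51A1, EBP, SQLE and MSMO1 came next with 24.5 ± 3.44, 23.01 ± 1.23, 22.4 ± 1.69 and 21.0 ± 4.49, and the libraries of neighbours among these 4 overlapped. HSD17B7 (5.30 ± 0.464), LSS (4.72 ± 0.330) and TM7SF2 (4.13 ± 0.637) formed the low end, and their neighbours overlapped too. In shBry the order of the means differed at both ends. NSDHL (16.2 ± 1.70) and DHCR7 (15.3 ± 0.479) overlapped at the top, CYP51A1 (12.4 ± 0.816) came next, above SQLE (10.1 ± 0.952), MSMO1 (8.57 ± 0.381) and EBP (7.42 ± 0.568), and TM7SF2 (2.45 ± 0.396), HSD17B7 (2.07 ± 0.109) and LSS (1.93 ± 0.0528) lay together at the bottom. The highest member was 11.1, 11.8 and 13.98 times the lowest in the shNC libraries, and 9.14, 7.62 and 8.38 times in the shBry libraries. DHCR7 made up 27.9%, 25.9% and 24.7% of the summed levels per kilobase in shNC and 20.1%, 19.98% and 19.9% in shBry. The order depended on the length used: with the longest annotated transcript in place of all exon bases, DHCR7 and NSDHL stayed on top in shNC, but SQLE ranked 3 instead of 5 and CYP51A1 ranked 5 instead of 3. With that length DHCR7 also stayed first in shBry, at a mean of 23.9 CPM per kilobase against 16.7 for NSDHL. The place of CYP51A1 is uncertain by either length. Other annotated genes overlap 83.2% of its exon bases, and reads lost to them are not known.

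**Figure D4:**
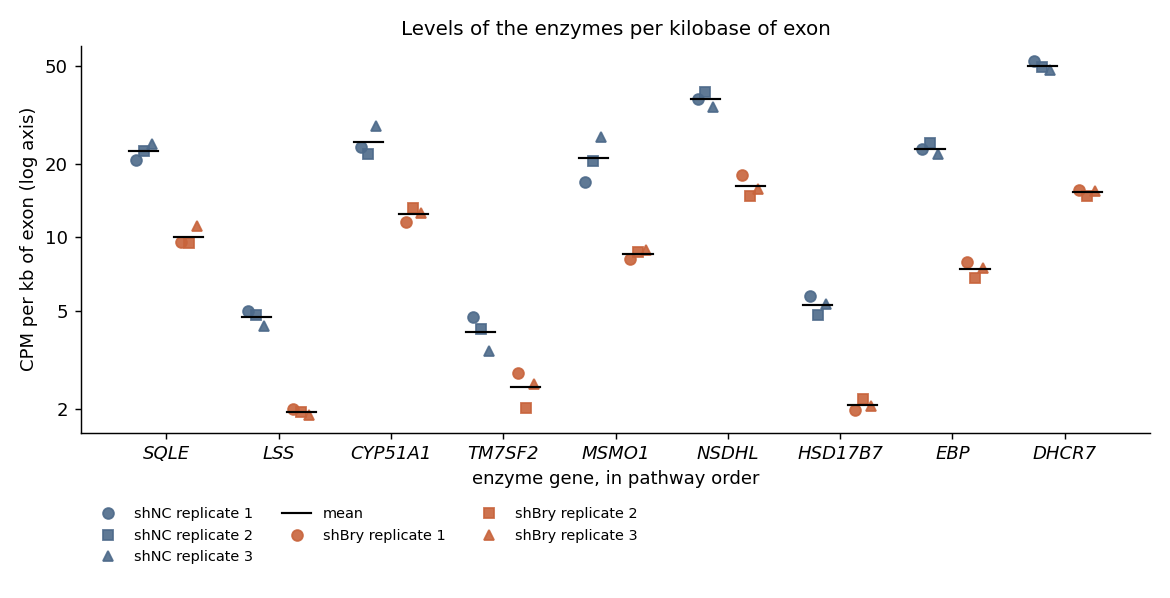
CPM per kilobase of exon of the 9 enzyme genes in each library, on a log axis, with group means as black lines. DHCR7 leads in shNC with a mean of 50.2 and meets NSDHL in shBry (with the longest transcript as length it stays above, 23.9 against 16.7), while LSS, TM7SF2 and HSD17B7 have means of at most 5.30 in both groups.

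LBR and SC5D, other enzymes between squalene and cholesterol, were called lower as well. LBR, a protein of the inner nuclear membrane, catalyses the same reduction as TM7SF2. It had 65.8, 66.9 and 84.6 CPM in shNC and 37.6, 52.7 and 48.6 in shBry, or -0.64 ± 0.13 on the log2 scale (SE; edgeR adjusted p = 0.00078). The call rested on single libraries, since LBR had -0.54 without shNC replicate 3 and -0.52 without shBry replicate 1, both under the fold change limit. TM7SF2 and LBR thus had the smallest falls among the 9 members, LBR and SC5D. Per kilobase, TM7SF2 made up 27.4%, 24.9% and 17.7% of the pair in shNC and 28.1%, 16.8% and 21.5% in shBry, and the groups overlapped (exact two-sided permutation p = 0.8).
SC5D, which introduces a double bond before DHCR7 acts, had 28.0, 31.1 and 43.6 CPM in shNC and 17.2, 22.0 and 15.8 in shBry, or -0.90 ± 0.17 on the log2 scale (SE; edgeR adjusted p = 0.00044).

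Enzymes of the pathway depend on electron donors and on partner proteins. Of 9 such genes, 2 were called lower and none higher, against 15.2% and 17.1% of all genes tested, with a median log2 fold change of -0.41. ERG28, listed under its older symbol C14orf1, encodes a protein that tethers sterol enzymes to each other, and it had -1.22 ± 0.10 (SE; edgeR adjusted p = 3e-07), within the range of the members. CYB5R3, the reductase that passes electrons to cytochrome b5, had -1.01 ± 0.08 (SE; edgeR adjusted p = 1.3e-07). CYB5B, a cytochrome b5 gene, had -0.41 (edgeR adjusted p = 0.00031), below the fold change limit, and 35.1% of its exon bases are overlapped by other genes. MARCHF6 (listed as MARCH6), the ubiquitin ligase that marks SQLE protein for degradation, went against the list with 0.28 (edgeR adjusted p = 0.016), also below the limit. Without a fold change limit, 7 of the 9 had an adjusted p below 0.05, 6 of them lower, against 25.3% of all genes tested that were lower by this rule.

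Of the 9 genes of the mevalonate pathway that leads up to squalene, 8 were called lower, against 15.2% of all genes tested, with a median log2 fold change of -1.61. ACAT2, FDFT1 and FDPS had the smallest adjusted p of these, with -2.15, -1.78 and -1.65, and 52.3% of the exon bases of ACAT2 are overlapped by other genes. FDFT1, the enzyme that makes squalene, and SQLE, the next enzyme, stood at 293 ± 12.9 and 96.5 ± 7.28 CPM in shNC and at 85.6 ± 4.16 and 43.4 ± 4.10 in shBry (SD, n = 3). PMVK was not called, with 0.39 (edgeR adjusted p = 0.019). The genes that control and respond to SREBP moved in both directions, with 6 of 11 tested genes called lower and 3 higher, against 15.2% and 17.1% of all genes tested. SREBF2, which encodes SREBP-2, had 410, 391 and 362 CPM in shNC and 223, 223 and 229 in shBry, or -0.79 ± 0.08 on the log2 scale (SE; edgeR adjusted p = 1.3e-06). INSIG1, a sterol-regulated gene that retains SREBP in the membrane, had -1.74 ± 0.11 (SE; edgeR adjusted p = 1.7e-08), close to DHCR7. NPC2, which binds cholesterol inside the lysosome, had -0.97, while its partner NPC1 had 0.77 and was called higher. SREBF1 (0.69) and MBTPS2 (0.76), a protease that releases SREBP, were called higher too.

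**Figure D5:**
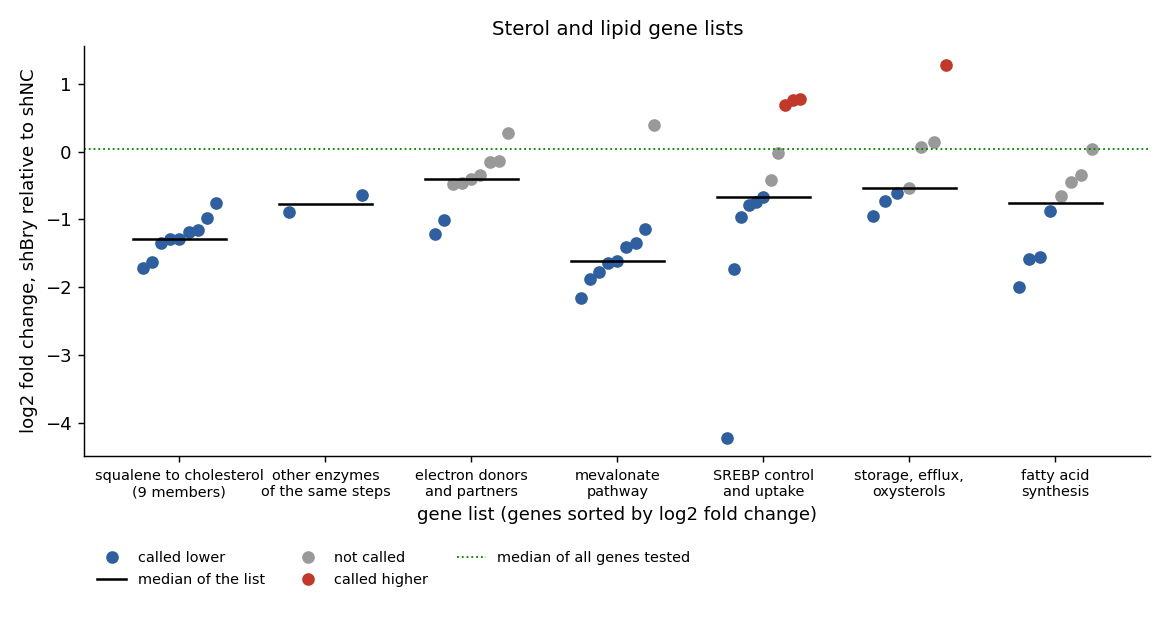
Log2 fold changes of all tested genes in 7 sterol and lipid lists, sorted within each list, with genes called lower in blue, called higher in red and not called in grey, and black lines at list medians. The members and the mevalonate genes have medians of -1.29 and -1.61, and the lists of SREBP control and of storage and efflux hold genes on both sides of 0.

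By the smallest root mean square difference of the 6 log2 CPM values, each centred on the gene's shNC mean, from the median of the members, the genes most like the members were ARRDC1-AS1 (0.0346), CERK (0.0391) and ALAD (0.0423), out of 9404 other genes that averaged 10 CPM or more. CERK encodes ceramide kinase and had 240 CPM in shNC and 98.1 in shBry, ALAD encodes an enzyme of heme synthesis with 78.7 and 32.5, and ARRDC1-AS1 is an antisense transcript with 22.8 and 9.78. With 6 libraries in 2 groups, likeness of this kind is mostly a fold change of the same size.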

How the data were processed

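RNA of MDA-MB-231 shBry and shNC cells (3 libraries each) was measured by RNA-Sequence. The authors deposited raw counts, whole numbers of reads per gene symbol, without normalization. The submitters' processing notes name HISAT2 2.0.4, HTSeq and GRCh38. The annotation and strand setting are not given in the sources used here, so overlapping and antisense genes could share reads. Samples were grouped by the hairpin in their labels.

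Genes were filtered with filterByExpr (minimum count 10), scaled with TMM and compared with edgeR 4.0.16 (quasi-likelihood test) under R 4.3.3, with the fold change limit of 1.5 that the labels give. Standard errors are the log2 fold change divided by the square root of F. Single ratios were compared by exact permutation tests (SciPy 1.17.1). Locations, exon lengths and overlaps came from GENCODE 29 (GRCh38), matched by symbol. The fits were tested first on simulated data with far fewer changed genes than were called here, so that test does not cover changes this widespread. Alternatives were no TMM, DESeq2 1.42.0, limma-voom (limma 3.58.1), no expression filter, unadjusted p, other fold change limits, a replicate block, the omission of single libraries and, added later, pseudogene counts joined to HSD17B7.

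Beside the 9 members, the genes named are LBR and SC5D, the 3 smallest adjusted p of each list, genes with an adjusted p below 0.05 against the majority of calls in their list, the 3 genes most like the members and rows named as pseudogenes or antisense genes of members. The members and lists were chosen with earlier results of these data known. Some genes are not reported here and were left out of the lists.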

Additional observations from a re-analysis of the deposited data

How the results depend on the processing

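All 9 members were called lower in each of the alternatives run, except with a fold change limit of 2, where 7 were. Their median log2 fold change lay between -1.31 and -1.25 over 12 alternatives. TM7SF2 ranged most relative to its size, from -0.90 to -0.66 with a library left out. Over all genes, 2297 were called with a limit of 2 and 8139 with none, against 4945. With the limit of 2, neither LBR nor SC5D (0 of 2), 2 genes of SREBP control and uptake and 1 of storage and efflux were called, and without a limit 7 electron donors and partners. With each library left out, between 1 and 2 of LBR and SC5D (1 without shNC replicate 3 or shBry replicate 1, where LBR was no longer called) and between 2 and 4 storage and efflux genes were called. The number was 2 without shNC replicate 1 or without shNC replicate 2, where both CYP27A1 and APOE were no longer called. APOE was also lost without shNC replicate 3 or shBry replicate 3 and CYP27A1 without shBry replicate 1, where NR1H3 was gained. The shift of TM7SF2 over CYP51A1 then lay between -0.01 and 0.40 (-0.014 without shNC replicate 3), and that of NSDHL over MSMO1 between -0.12 and 0.25 (-0.115 without shNC replicate 3, -0.023 without shBry replicate 1). The cause was not tested. With the longest transcript as length, the median member level in shNC was 27.4 CPM per kilobase, against 22.4. With the replicate number as a block, 9 members and 4914 genes were called, and no call of a member changed. Same-numbered libraries had correlations of deviations from their group means of 0.246, -0.129 and -0.0539. Those of libraries with different numbers lay between -0.296 and 0.307. These values showed no pairing by number, and they do not settle whether libraries were handled in pairs. Depth limits TM7SF2 most, with 163 to 351 counts per library.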

Other observations

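Genes of fatty acid synthesis, which SREBP also drives, were lower in part. Of 8 tested, 4 were called lower and none higher in shBry, against 15.2% and 17.1% of all genes tested, with a median log2 fold change of -0.76. FADS2, a fatty acid desaturase, fell from 770 ± 39.6 to 192 ± 9.22 CPM (SD, n = 3), or -2.003 on the log2 scale (edgeR adjusted p = 1.6e-10), a larger fall than that of any of the 9 sterol enzymes. SCD, which introduces the double bond of oleic acid, and ACSS2, which activates acetate, had -1.58 and -1.56. FADS1, the neighbour of FADS2 in the same desaturation pathway, was not called, with 0.04 (it was singled out after its values were seen).

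Genes of sterol storage, efflux and oxysterols were called lower in 3 of 7 tested and higher in 1, against 15.2% and 17.1% of all genes tested. Of the 3 lower, CYP27A1 was not called without shNC replicate 1, shNC replicate 2 or shBry replicate 1, and APOE was not called when 1 of the 3 shNC libraries or shBry replicate 3 was left out. ABCA1, the transporter that exports cholesterol, rose from 2.70 ± 0.143 to 6.55 ± 2.70 CPM, or 1.29 on the log2 scale (edgeR adjusted p = 0.00094), and was higher in 3 of 3 shBry libraries. NR1H2, which encodes the sterol-sensing receptor LXR beta, had -0.72, and NR1H3, which encodes LXR alpha, had -0.54 and was not called. Without shNC replicate 3, shBry replicate 1 or shBry replicate 3, NR1H3 passed the fold change limit, with -0.62, -0.59 and -0.59.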
